A study of Mus musculus with 2 samples.

Results

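Histone variants of the replication-independent kind are described here in mouse embryonic stem (ES) cells through 10 genes taken by name from a table of 28592 genes: H2afz, H2afv, H2afx, H2afy and H2afy2 of the H2A class, H3f3a, H3f3b and Cenpa of the H3 class, and the linker histone genes H1f0 and H1fx. All 10 had a row. The cells were E14TG2a, an Hprt-deficient male ES line, kept in 2i/LIF medium, in which inhibitors of MEK and GSK3 together with leukaemia inhibitory factor hold cells in the naive ground state. The series has 1 group of 2 replicates, not stated to be separate cultures, so their spread is possibly technical only, and no other condition was compared. Values are FPKM, a fragment count corrected for transcript length and for library size, as the authors computed them from stranded libraries of total RNA depleted of ribosomal RNA. With 2 replicates, an exact two-sided test of a difference between a pair of genes cannot give a p below 0.5, so values are given with their SD and no p.

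Most histone protein is made during S phase from clustered genes without introns, whose transcripts end in a stem-loop and carry no poly(A) tail. Replication-independent variants come from separate genes, most of them with introns and polyadenylated transcripts, and chaperones or remodelling complexes place them in chromatin outside DNA replication. H2A.Z marks promoters and enhancers, H3.3 marks active genes and, through ATRX and DAXX, repeats and telomeres, CENP-A defines the centromere, macroH2A is linked to silent chromatin, and phosphorylated H2A.X marks DNA breaks. Total RNA without a poly(A) selection step retains both kinds of transcript.

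The H3.3 pair and the H2A.Z pair are cases in which separate genes encode the same or nearly the same protein. The 250 bases before the RefSeq transcription start of these 4 genes are shown, because the genes of each pair differed in level and these bases show what lies directly before each start. They come from RefSeq on GRCm38.p6 and are written 5′ to 3′ on the strand of the gene. Capitals mark matches to 3 motifs searched on both strands: CCAAT, the GC box GGGCGG, and TATAAA. A match on the opposite strand appears as the reverse complement. The windows are chr11:116024505-116024754 (minus strand) for H3f3b, chr1:180813606-180813855 (minus strand) for H3f3a, chr3:137864237-137864486 (plus strand) for H2afz and chr11:6444444-6444693 (minus strand) for H2afv.
H3f3b: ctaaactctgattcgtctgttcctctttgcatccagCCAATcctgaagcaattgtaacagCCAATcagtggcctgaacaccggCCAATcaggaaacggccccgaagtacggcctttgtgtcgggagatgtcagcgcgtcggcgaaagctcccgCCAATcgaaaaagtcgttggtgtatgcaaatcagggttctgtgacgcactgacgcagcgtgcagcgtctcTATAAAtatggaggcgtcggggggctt
H3f3a: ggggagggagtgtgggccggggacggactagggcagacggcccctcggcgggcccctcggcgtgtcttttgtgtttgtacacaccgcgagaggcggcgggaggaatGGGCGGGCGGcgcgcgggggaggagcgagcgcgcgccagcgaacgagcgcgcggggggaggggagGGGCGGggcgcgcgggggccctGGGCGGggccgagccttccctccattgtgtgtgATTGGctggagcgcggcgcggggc
H2afz: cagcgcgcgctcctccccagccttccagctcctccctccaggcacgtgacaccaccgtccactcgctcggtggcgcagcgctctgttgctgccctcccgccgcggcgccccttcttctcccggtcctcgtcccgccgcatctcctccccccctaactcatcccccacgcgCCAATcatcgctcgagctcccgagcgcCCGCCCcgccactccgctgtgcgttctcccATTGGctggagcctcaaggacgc
H2afv: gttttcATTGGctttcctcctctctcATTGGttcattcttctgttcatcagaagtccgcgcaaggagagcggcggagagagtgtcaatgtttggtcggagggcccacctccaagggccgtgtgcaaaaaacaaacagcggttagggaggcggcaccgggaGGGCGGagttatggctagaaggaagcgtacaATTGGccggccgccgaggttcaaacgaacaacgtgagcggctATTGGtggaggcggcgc

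H3f3b had 4 CCAAT matches, 1 TATAAA match that began 27 bases before the start, and no GC box, in a window with 54% GC. H3f3a had 4 GC boxes, of which the most distant pair overlap by 2 bases, 1 CCAAT match and no TATAAA, in a window with 77.2% GC. Both H2A.Z genes had a single GC box and no TATAAA, with 2 CCAAT matches before H2afz and 4 before H2afv. Of 32851 RefSeq windows of the same length, 33.8% held CCAAT at least 1 time, 10.1% at least 2 times and 0.84% at least 4 times, 32.7% held a GC box, 4.09% held at least 4, and 12.4% held TATAAA. A match describes the letters only and is not shown to be a bound site.

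Windows were held for 9 of the 10 genes, and H2afx is named only. CCAAT was found in 5 of the 9 and at least 2 times in 4 (H2afz, H2afv, H3f3b and Cenpa), a GC box in 5, and TATAAA in H3f3b alone. The windows of H1f0 and H2afy2 held none of the 3 motifs. The GC share ran from 48.8% before Cenpa to 77.2% before H3f3a, with a median of 71.2% over the 9 windows and 52.4% over all windows. The RefSeq span of H3f3b reaches 1535 bases and that of H2afy2 740.0 bases upstream of the start used here, and those of H2afv, H2afy and Cenpa 68, 76 and 9 bases, so other starts exist whose windows were not searched.

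**Figure D1:**
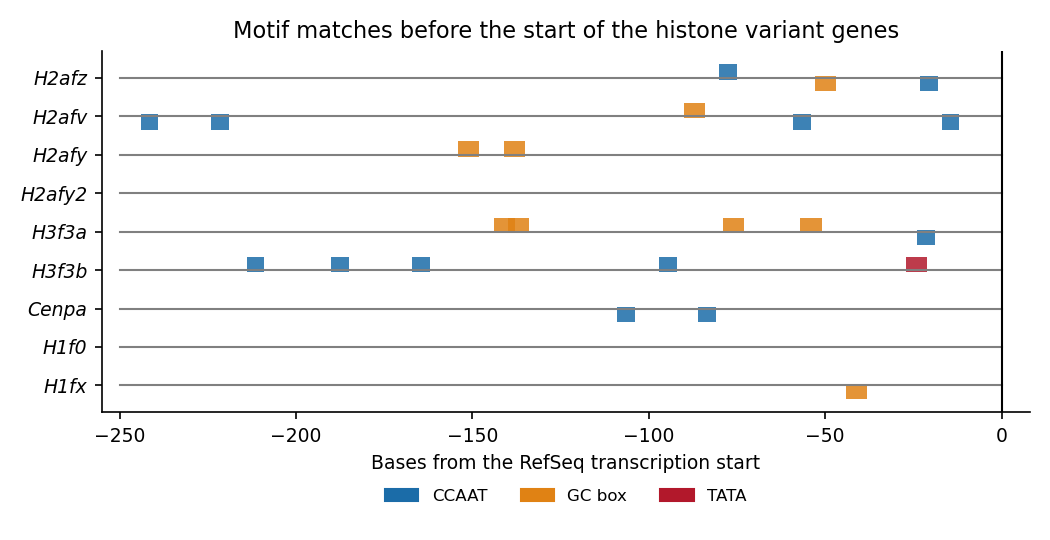
Motif matches in the 250 bases before the RefSeq start of 9 histone variant genes, with the start at 0 on the x axis, in bases. Boxes above a line are matches on the gene's strand and boxes below it on the opposite strand, and the row of H3f3b shows 4 CCAAT boxes and the only TATAAA match, where that of H3f3a shows 4 GC boxes and 1 CCAAT box.

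All 10 variant genes were detected, that is, each replicate gave an FPKM of 1 or more, as it did for 39.4% of all genes. Both replicates reached an FPKM of 100 for 6 of 10 (H2afz, H3f3a, H3f3b, H2afx, H2afv and H2afy), against 3.61% of all genes. Cenpa stood at that limit, with 102 in replicate 1 and 99.7 in replicate 2. The median of the 10 means was 114 FPKM, against 12.7 over all detected genes and 0.233 over all genes in the table. Levels ran from a mean of 1994 for H2afz to one of 1.71 for H1fx. The cells carried their label's markers: the pluripotency factors Pou5f1, Nanog, Sox2, Esrrb and Zfp42 lay between 94.6 and 976 FPKM. Of 8 feeder fibroblast markers none was detected, and of 8 markers of early differentiated cells 2 were, T (12.9 and 11.9) and Cdx2 (1.13 and 1.46).

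H2A.Z RNA came almost entirely from H2afz. H2afz (ENSMUSG00000037894.12, now H2az1, chromosome 3, 137864487 to 137866922), which encodes H2A.Z.1, had 2129.6 FPKM in replicate 1 and 1858 in replicate 2, a mean of 1994 ± 192 (SD, n = 2). It ranked 101st of the 28592 genes. H2afv (ENSMUSG00000041126.15, now H2az2, chromosome 11, 6427226 to 6444511), which encodes the near-identical H2A.Z.2, had 117 and 111 (114 ± 3.99). The replicates of the pair lay far apart and did not overlap. H2afz exceeded H2afv by 4.11 ± 0.09 in log2(FPKM + 1) (SD over 2 replicates), or 18.2-fold in replicate 1 and 16.7-fold in replicate 2. H2afv thus gave 5.21% and 5.66% of the summed FPKM of the pair.

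H2afx (ENSMUSG00000049932.3, now H2ax, chromosome 9, 44334715 to 44336077) encodes H2A.X, whose tail is phosphorylated around DNA double-strand breaks. Its gene has no introns, and its transcripts are known both with a stem-loop and with a poly(A) tail. It had 240.0 FPKM in replicate 1 and 194 in replicate 2 (217 ± 32.6). It was the second most abundant of the H2A variants in both replicates, and had the largest log2 ratio between the replicates, in size, of the 10 genes.

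The macroH2A genes encode H2A with a large macro domain. H2afy (ENSMUSG00000015937.13, macroH2A1, chromosome 13, 56073622 to 56135626) had 122 and 107 FPKM (114 ± 10.5), and H2afy2 (ENSMUSG00000020086.6, macroH2A2, chromosome 10, 61738640 to 61784604) had 11.3 and 10.9 (11.1 ± 0.292). H2afy was higher than H2afy2 by 3.25 ± 0.10 in log2(FPKM + 1), 10.8-fold and 9.81-fold in replicates 1 and 2, and the replicates did not overlap. The table gives 1 value per gene, so the macroH2A1.1 and macroH2A1.2 splice forms of H2afy were not told apart. The RefSeq span of H2afy2 overlaps the end of Aifm2, which was at 5.38 and 4.53 FPKM, and the sources used here do not say if the authors' FPKM took strand into account. It also overlaps Mir5108 and the protein-coding Gm2137, and the span of H2afy overlaps the lncRNA Gm31485. No value was held here for these further genes.

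The H3.3 genes encode 1 and the same protein. H3f3b (ENSMUSG00000016559.13, chromosome 11, 116021961 to 116026039) had 487 FPKM in replicate 1 and 398 in replicate 2 (442 ± 63.2). H3f3a (ENSMUSG00000060743.11, chromosome 1, 180802560 to 180813605) had 708 and 645 (677 ± 45.1). H3f3a was the higher in both replicates, and the replicate ranges did not overlap. The difference of H3f3b minus H3f3a was -0.62 ± 0.11 in log2(FPKM + 1), with H3f3b at 40.7% and 38.1% of the summed FPKM of the pair. The gene with 4 GC boxes and no TATAAA in its window was the higher of the pair, and the one with 4 CCAAT matches and a TATAAA the lower. Any link between these motifs and the levels was not tested. RefSeq names 9 further H3.3-like copies, mostly pseudogenes, and none was analysed here, so whether reads from such copies were counted for H3f3a or H3f3b cannot be told. The antisense gene H3f3aos (ENSMUSG00000073485.3) was at 0.924 and 0.768 FPKM, low against its partner.

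Cenpa (ENSMUSG00000029177.8, chromosome 5, 30666877 to 30674837), which encodes the centromeric H3 variant and is transcribed mainly in G2, had 102 and 99.7 FPKM (101 ± 1.98). Its log2 ratio between the replicates, 0.04 in size, was the smallest of the 10. Among 10 genes that peak in G2 and mitosis, which had a median of 66.5 FPKM, it lay between Aurka, a mitotic kinase (85.3 ± 0.846), and Cdc20, an activator of the anaphase-promoting complex (145 ± 4.89). The highest of that list were the topoisomerase Top2a (379 ± 5.09) and the cyclin Ccnb1 (304 ± 11.4), and the lowest the kinetochore genes Cenpf (15.5 ± 0.0602) and Cenpe (14.5 ± 0.737).

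The linker variants had the lowest summed level of the pairs compared, 27.2 and 25.4 FPKM. H1fx (ENSMUSG00000044927.6, now H1f10, chromosome 6, 87980421 to 87981482), which encodes H1X, had 1.78 and 1.65 FPKM (1.71 ± 0.0909). H1f0 (ENSMUSG00000096210.1, chromosome 15, 79028212 to 79030504), which encodes H1.0, the linker histone that accumulates in non-dividing differentiated cells, had 25.4 and 23.8 (24.6 ± 1.17). H1fx minus H1f0 was -3.24 ± 0.02 in log2(FPKM + 1), and without a pseudocount H1f0 was 14.3-fold and 14.4-fold higher in replicates 1 and 2. H1fx lay at percentile 63.3 of all genes but 6.70 among detected genes, so it was one of the lower detected genes.

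**Figure D2:**
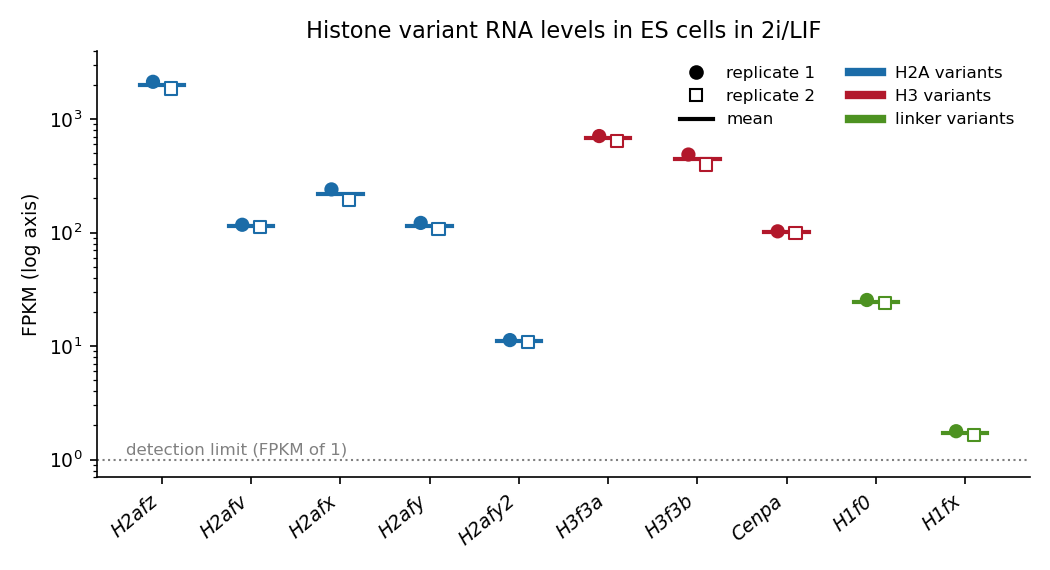
FPKM of the 10 histone variant genes in each replicate (log y axis), with a bar at the mean and the detection limit as a dotted line. H2afz stands highest at 2129.6 and 1858, H1fx lowest at 1.78 and 1.65, and H2afv and H2afy overlap.

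In order of mean level the genes were H2afz, H3f3a, H3f3b, H2afx, H2afv, H2afy, Cenpa, H1f0, H2afy2 and H1fx. H2afv and H2afy could not be ordered: H2afy was higher in replicate 1 and H2afv in replicate 2. The other neighbours did not overlap between replicates, although the step from H2afy to Cenpa was small (1.13-fold in the means). The largest step was the 6.47-fold one between H2afy2 and H1fx, followed by the 4.11-fold one between Cenpa and H1f0.

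Set beside the replication-dependent genes of the same class, the variants were a minority of the RNA in every class. The 5 H2A variants summed to 2620 FPKM in replicate 1 and 2281 in replicate 2, against 15613 and 14456 for 19 replication-dependent H2A genes, a share of 14.4% and 13.6% (SD 0.522, n = 2). H2afz made up 11.4 ± 0.408% of the class, and 2 of the 19 replication-dependent genes were above it in replicate 1 and 3 in replicate 2, led by Hist1h2ai at 4267 and 4016. H2afx contributed 1.24 ± 0.111%, H2afv 0.654 ± 0.0167%, H2afy 0.652 ± 0.0209% and H2afy2 0.0634 ± 0.00217%. H2afj, a further H2A gene outside these sums, was at 32.6 ± 2.44 FPKM. Of the histone genes on other clusters, Hist3h2a, which is counted among the 19, was at 113 ± 1.51, and the H2B gene Hist3h2ba at 32.1 ± 0.0750.

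In the H3 class the 3 variant genes summed to 1298 and 1142 FPKM, against 14577 and 12160 for 12 replication-dependent H3 genes, a share of 8.38 ± 0.289%. The H3.3 pair alone gave 7.74 ± 0.223% when set against the replication-dependent genes. H3f3a contributed 4.65 ± 0.271%, with 5 of the 12 replication-dependent genes above it in replicate 1 and 4 in replicate 2, and H3f3b 3.03 ± 0.0556%, with 6 above it in each. Cenpa contributed 0.697 ± 0.0734%. The highest replication-dependent H3 gene was Hist1h3h, at 5665 and 4839.

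The linker class was different in scale. H1f0 and H1fx summed to 27.2 and 25.4 FPKM against 4634 and 4138 for 6 replication-dependent H1 genes, a share of 0.597 ± 0.0190%. All 5 somatic replication-dependent H1 genes exceeded H1f0, from Hist1h1e at 184 and 151 to Hist1h1a at 2180.2 and 1979.5, with Hist1h1d (1007 and 888), Hist1h1b (835 and 762) and Hist1h1c (426 and 354) between them. Each share depends on how reads were divided among near-identical copies and on the effective length of short transcripts, which make single replication-dependent values uncertain. Without the highest replication-dependent gene of each class the shares were 18.3% (H2A), 13.1% (H3) and 1.13% (H1). H2B and H4 have no gene among the 10, and their highest genes were Hist1h2bp (4727 and 4346) and Hist1h4k (18712 and 15931).

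**Figure D3:**
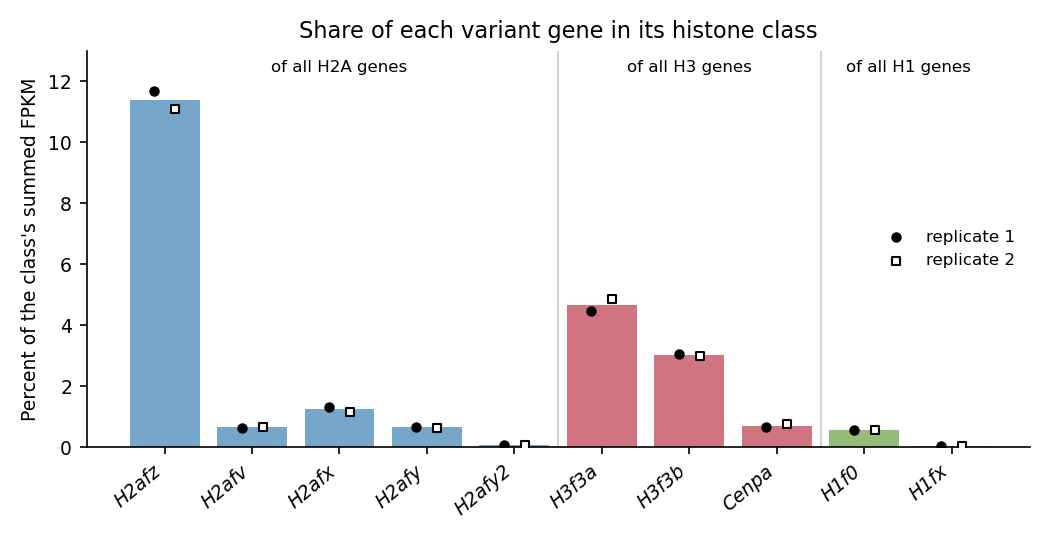
Share of each variant gene in the summed FPKM of its class, in percent, where the class is the variant genes named plus the replication-dependent genes. Bars are means over the 2 replicates and symbols the replicates, and H2afz stands at 11.4%, H3f3a at 4.65% and H1f0 at 0.559%.

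The measured factors that place or read the variants were all detected, against 39.4% of all genes. Their list medians lay below the 114 FPKM of the variants and above the 12.7 FPKM of all detected genes. All 12 genes of H2A.Z exchange and removal were detected, with a median of 29.2 FPKM. The ATPases Ruvbl2 (99.3 ± 4.30) and Ruvbl1 (91.1 ± 2.97), shared by several complexes, were highest, followed by Yeats4 (61.1 ± 0.112) and the H2A.Z chaperone Anp32e (48.5 ± 2.52). The remodeller Ino80 (7.49 ± 0.0840) and Srcap, the ATPase that deposits H2A.Z (5.10 ± 0.338), were lowest. Each of the 12 lay below H2afz and H2afv.

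All 9 genes for supply and deposition of H3.3 were detected, with a median of 26.0 FPKM. The general H3 chaperone Nasp (384 ± 18.0) was far above the rest, and the remodeller Atrx (95.8 ± 1.54) exceeded its partner Daxx (33.5 ± 0.326). Asf1b, which hands H3 to other chaperones, was at 26.7 ± 2.03. Of the HIRA complex, which deposits H3.3 at active genes, Cabin1 (3.42 ± 0.140) and Ubn2 (4.06 ± 0.224) were the lowest of the list. Hira itself was higher, at 15.7 ± 0.691, and Ubn1 was at 6.30 ± 0.0794.

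All 9 genes for loading and binding of CENP-A were detected, with a median of 29.8 FPKM, and the highest were Rbbp7 (202 ± 3.62) and Rbbp4 (93.3 ± 5.76), histone-binding proteins of many complexes. Hjurp, the chaperone of CENP-A, was at 50.3 ± 2.69. Cenpn, which binds the CENP-A nucleosome (21.3 ± 0.240), and Cenpb, which binds centromeric DNA (17.3 ± 2.17), were lowest. Rbbp7 was the only gene of the list above Cenpa in both replicates.

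All 11 genes of H2A.X signalling were detected, with a median of 21.3 FPKM. The phosphatase subunit Ppp4c (170 ± 10.8) was highest, followed by Baz1b, the kinase of the H2A.X tyrosine (38.1 ± 0.701), Atr (26.0 ± 1.10) and the ubiquitin ligase Rnf168 (25.3 ± 0.323). Mdc1, the main reader of phosphorylated H2A.X (3.52 ± 0.00780), and the phosphatase Eya1 (3.49 ± 0.396) were lowest. All 11 were below H2afx in both replicates.

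The macroH2A list had 5 measured genes of 6 (Qki was not analysed here), all detected, with a median of 30.4 FPKM. Parp1, the poly(ADP-ribose) polymerase, was at 228 ± 20.3, Atrx at 95.8 ± 1.54, the ubiquitin ligase scaffold Cul3 at 30.4 ± 0.835, its adaptor Spop at 10.6 ± 0.866 and the splicing regulator Mbnl1 at 5.47 ± 0.695. Of 8 genes for transcription and 3′ processing of replication-dependent histone RNA all were detected, against 39.4% of all genes, with a median of 15.1. Slbp, the stem-loop binding protein, stood highest at 117 ± 2.15, followed by Cpsf3 (42.0 ± 0.509), Casp8ap2 (38.6 ± 1.01) and Lsm10 (17.2 ± 0.249), and Zfp473 (8.06 ± 0.0597) and Lsm11 (4.94 ± 0.00594) were lowest.

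Of 10 measured genes listed as germ line variants 3 were detected, a share not far from the 39.4% of all genes. They were Hist1h2aa (7.63 ± 0.0769), Hist1h2ba (7.60 ± 2.40) and the testis linker gene Hist1h1t (3.25 ± 0.783). All 3 lie in the replication-dependent arrays and are also counted among the replication-dependent genes of their classes. Hils1, a spermatid linker histone, was at 0.0198 ± 0.0280. The oocyte linker gene H1foo, H2afb1, H2afb2, H2afb3 and H2al2a were listed at 0 in both replicates.

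**Figure D4:**
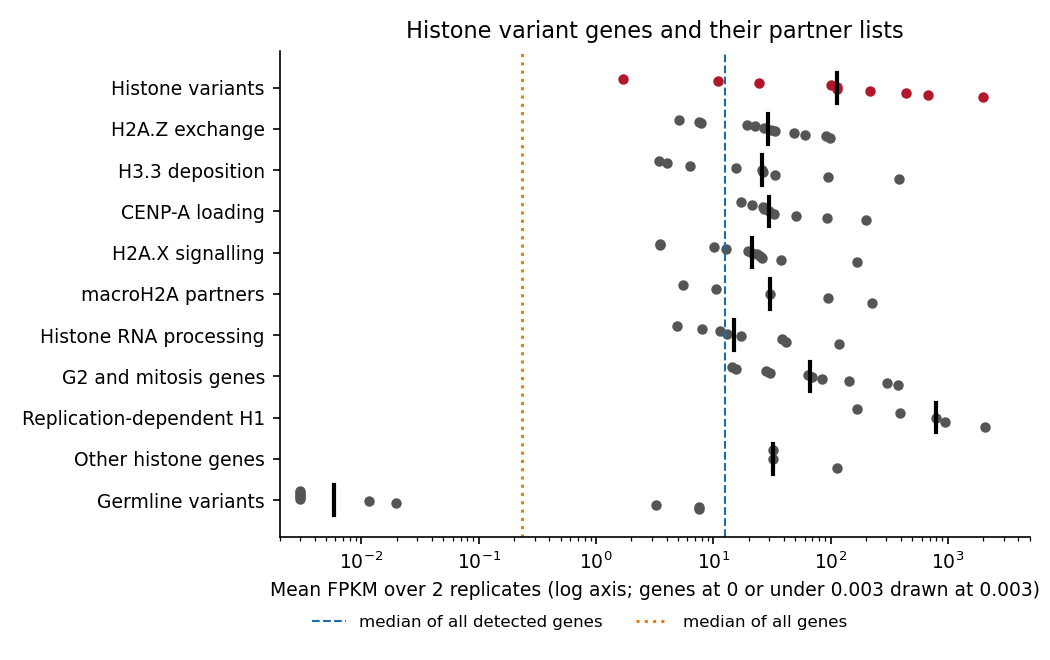
Mean FPKM over 2 replicates (log x axis) of the variant genes in red and of each list of partner or comparison genes in grey, with black bars at the list medians and lines at the medians of all detected genes and of all genes. The variant genes have a median of 114, against 15.1 to 30.4 for the 6 lists of handling and processing factors, and 5 germline variants lie at 0.

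All 10 variant genes were lower in replicate 2 than in replicate 1, by 1.03-fold to 1.24-fold. Of all detected genes 51.2% were lower in replicate 2, and of those that reached 100 FPKM in both replicates 59.9% were. The median log2 ratio of replicate 2 to replicate 1 was -0.12 over the variants, against -0.00392 over all detected genes. H2afx (-0.31), H3f3b (-0.29) and H2afy (-0.19) lay among the lowest 5% of the 811 genes with a mean from 100 to 500 FPKM, whose limit was -0.17. The other 7 lay between the lowest and the highest 5% of genes of their level.

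The replication-dependent genes differed the same way. Of 66 such genes 59 were lower in replicate 2, against 51.2% of all detected genes and 59.9% of those that reached 100 FPKM in both replicates. All 12 of the H3 and all 13 of the H4 class were among them. The summed FPKM of replicate 2 over replicate 1 was 0.834 for H3, 0.845 for H4, 0.893 for H1, 0.926 for H2A and 0.935 for H2B. H2afx (0.808) and H3f3b (0.816) had ratios below each of these sums. Single replication-dependent genes varied more widely than the sums. Hist1h3c, at 602 and 441 FPKM in replicates 1 and 2, dropped further than H2afx, whereas Hist2h2aa2 (1723 and 1933) rose. The other lists were mixed, and their counts are to be read beside the same 51.2% of all detected genes. In replicate 2, 8 of 12 H2A.Z exchange genes were lower, 5 of 9 for CENP-A loading, 6 of 11 for H2A.X signalling, 3 of 5 macroH2A partners, 5 of 8 histone RNA processing genes and 4 of 5 ES cell markers, but 3 of 9 for H3.3 deposition and 2 of 10 genes of G2 and mitosis. The fibroblast markers summed to 3.24 FPKM in replicate 2 and 0.415 in replicate 1, with 7 of 8 higher in replicate 2 and Lum the exception. Their means were at most 0.464 FPKM, and the share of all genes at such levels is not given here. The part of these differences between the libraries in the lower variant levels was not tested.

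**Figure D5:**
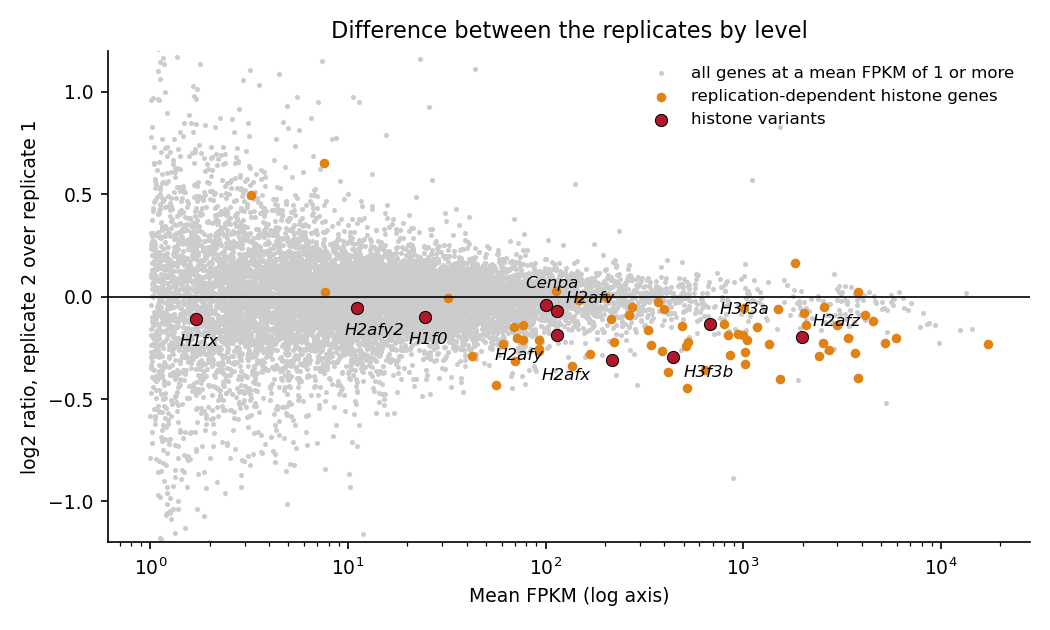
log2 ratio of replicate 2 to replicate 1 (y axis) against mean FPKM (log x axis) for the 11483 genes above 0 in both replicates with a mean FPKM of at least 1 in grey, replication-dependent histone genes at such a mean in orange and the variants in red. All 10 variants lie below 0, H2afx and H3f3b farthest, and 34 of the genes lie outside the y axis.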

How the data were processed

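Per the labels' protocols, TRIzol RNA was depleted of ribosomal RNA and made into stranded libraries, 1 for each of 2 replicates. The authors deposited 1 table of FPKM per gene. The submitters' processing notes name CASAVA, TopHat2 and Cufflinks and the builds mm10 and GRCm38, whereas versions, annotation release, scaling between libraries and use of strand were not stated. Column sums of the deposited FPKM were 946498 (replicate 1) and 928174 (replicate 2). The number of reads is not known. Low values were checked for steps of whole reads: over 2288 genes above 0 in both replicates and below 0.1 on average, 66.8% of the replicate ratios matched a quotient of whole numbers from 1 to 8 to within 0.01 on the log2 scale. That share was highest when a read was worth the same in both libraries, and its median over all relative worths tried was 10.8%. Lengths are not given, so no counts or counting intervals were derived.

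Identifiers were matched to symbols for 28256 of 28592 genes, ignoring version numbers. Spans and promoter windows came from RefSeq on GRCm38.p6, by symbol or older name. Detected means an FPKM of at least 1 in both replicates. Differences between genes used log2(FPKM + 1) within each replicate, which understates differences of low genes. Class shares used summed FPKM. Named were the 10 variants, the 4 highest and 2 lowest genes of each handling list, and the highest gene of each replication-dependent class, and further genes named were chosen after their values were seen. Of the genes this rule names, 1 is not reported here. The variants and lists were chosen with earlier results of these data known. The calculations of log2 differences (without a pseudocount) and of shares were tested on simulated data, and those of detection and percentiles on small examples. The other steps were not tested in this way. Python 3.11.15, pandas 2.3.3 and numpy 2.4.6 were used.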

Additional observations from a re-analysis of the deposited data

How the results depend on the processing

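The difference of H2afy minus H2afy2, 3.25 with a pseudocount of 1, was 3.35 and 3.36 with pseudocounts of 0.1 and 0.01, and that of H1fx minus H1f0, -3.24, was -3.77 and -3.84, and -3.27 after rescaling to TPM. At a detection limit of 100 the count of variants was 6 in place of 10. Without the highest replication-dependent gene the variant share was 18.3% (H2A), 13.1% (H3) and 1.13% (H1). Of the other recomputed values for these comparisons, 71 stayed within the spread between replicates or within 1.5 times the count. They include values that leave out a replicate. With 2 replicates such a value of a difference or a share always lies within the SD, so it cannot show stability. Shares over detected replication-dependent genes only could not change either, because all such H1, H2A and H3 genes were detected. A detection limit of 0.1 cannot lower a count of detected genes. Rescaling to TPM multiplies both genes of a pair alike, so only the pseudocount lets their difference move. The 71 is therefore not a measure of stability. Of the further recomputed levels, percentiles and list medians, 18 moved and 42 did not. The count of 10 variants lower in replicate 2 was 10 after rescaling to TPM and 10 after centring on the median of detected genes, alternatives chosen after seeing the data. No paired analysis was possible because the series has a single group, so no replicates could be matched between groups, and the differences between genes were taken within each replicate. The unknown depth and effective lengths limit the precision of H1fx and of the shares.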
